A study of Mus musculus with 8 samples.

Results

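The 42 genes described here are genes of DNA replication and S phase, taken by name. On the array, 40 of them had at least 1 probe set annotated to that gene alone, out of 12393 genes measured, and these 40 genes held 80 of the 22690 probe sets. Gins2 and Chaf1a had none and were not analysed here. For 15 of the 40 genes there was a single probe set, and for the other 25 the one with the highest mean intensity was used. The 25% of genes with the lowest mean intensity, those under 21.8, were left out of the tests. That filter kept 39 of the 40 genes, all except Tyms, and 9295 genes in all.

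The cells were adipocytes grown from stromal-vascular cells of the inguinal white fat of male C57BL/6J mice, expressing either of the short hairpin RNA constructs sh-scr and sh-PRDM16. Prdm16 encodes a transcriptional coregulator known for its part in brown and beige fat cells. Cultures of each kind were left without an added agent or were given rosiglitazone, an agonist of the nuclear receptor PPARγ, at 1 µM. With 2 arrays for each of the 4 combinations there were 8 arrays, called untreated or treated sh-scr and untreated or treated sh-PRDM16. All 4 groups shared the strain, the sex, the tissue and the expression of a hairpin. The age of the mice, the hairpin sequences, the length of treatment and whether the 2 arrays of a group came from separate cultures were not stated, so each p-value reflects the spread among these arrays alone. No probe set was paired with Prdm16 in the annotation used, and its RNA was not analysed here.

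DNA is copied once per cell cycle, in S phase. In G1 the origin recognition complex, Cdc6 and Cdt1 load a ring of Mcm proteins onto each origin, and Cdc45 and the GINS complex later turn that ring into the working helicase, behind which primase, the polymerases, the sliding clamp and the ligase build the new strands. Most of these genes are transcribed late in G1 under E2F transcription factors, which cyclin D and cyclin E kinases release from the retinoblastoma protein. Mature adipocytes have left the cell cycle, whereas the preadipocytes they come from can divide.

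Between 22.0 and 25.2% of the probe sets of an array read under 16, and the array medians ran from 100.7 to 135.6. The arrays thus had not been brought to one median. Changes are therefore given as differences of log2(intensity + 16) on the scale as deposited, with the result on median-centred and quantile-normalized arrays beside the counts over all 39 tested genes and the median-centred result beside those by role. The median change of all 9295 genes was −0.16 for sh-PRDM16 against sh-scr in untreated cells and 0.15 in treated cells. With rosiglitazone it was −0.31 in sh-scr and 0.00 in sh-PRDM16 cells. A gene is said to rise or fall where its change passed limma's test at an adjusted p under 0.05 over all 9295 genes. All 10 measured adipocyte markers passed the filter, and their summed intensity was 69148 to 70134 in untreated sh-scr and 44138 to 50413 in untreated sh-PRDM16 arrays, then 68396 to 71975 and 59103 to 63678 in the treated ones. The sum of the 13 measured macrophage and leukocyte markers was 5177 to 5675, 1086 to 1166, 3352 to 3354 and 874 to 904 in the same order, with Itgam and Cd79a under 16 in every array. In bulk RNA, fewer cells of a type and less RNA per cell cannot be told apart. As a measure of RNA quality, the 3′ probe set of beta-actin exceeded the 5′ one by log2 0.38 and 0.49 in treated sh-scr and by 0.25 to 0.34 in the other 6 arrays, and the same difference for Gapdh ran from −0.44 to −0.33 over the 8.

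A search of promoters is given first, since many of the genes moved together in the comparisons that follow. RefSeq promoter windows (GRCm38.p6, 250 bases before to 50 after each start, 300 in all) were found by symbol for 36 of the 42 genes. The E2F motif was searched as TTTCCCGC, TTTCGCGC, TTTGCCGC or TTTGGCGC on both strands, overlapping matches included. It occurred in the windows of 13 of the 36 genes (36.1%), against 704 of 27025 genes (2.6%) in the whole table. The 13 were Orc1, Cdc6, Cdt1, Mcm3, Mcm5, Mcm6, Mcm7, Pola1, Pold1, Rfc3, Lig1, Uhrf1 and Dnmt1. The CHR motif, TTTGAA, known from promoters of genes of late cell cycle stages, occurred in 4 of the 36 (11.1%), against 20.23% of all genes. Windows of 280 bases, 30 of them after the start, are printed 5′ to 3′ for the 3 genes with an E2F motif whose called change between hairpins in treated cells was largest, with the motif in capitals: Uhrf1 at chr17:56304063-56304342 on the plus strand, Mcm3 at chr1:20820283-20820562 on the minus strand and Mcm6 at chr1:128359676-128359955 on the minus strand.
Uhrf1: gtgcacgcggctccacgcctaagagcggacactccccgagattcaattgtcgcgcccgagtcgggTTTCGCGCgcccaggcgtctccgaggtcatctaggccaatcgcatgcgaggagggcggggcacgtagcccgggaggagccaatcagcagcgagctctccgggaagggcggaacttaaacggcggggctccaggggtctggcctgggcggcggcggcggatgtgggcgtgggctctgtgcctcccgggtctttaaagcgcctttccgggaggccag
Mcm3: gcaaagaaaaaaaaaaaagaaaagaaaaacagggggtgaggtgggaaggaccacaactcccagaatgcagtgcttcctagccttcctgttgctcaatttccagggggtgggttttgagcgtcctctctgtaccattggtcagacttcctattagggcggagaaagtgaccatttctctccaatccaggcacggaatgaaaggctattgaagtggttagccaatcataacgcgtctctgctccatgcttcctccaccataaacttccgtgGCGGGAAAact
Mcm6: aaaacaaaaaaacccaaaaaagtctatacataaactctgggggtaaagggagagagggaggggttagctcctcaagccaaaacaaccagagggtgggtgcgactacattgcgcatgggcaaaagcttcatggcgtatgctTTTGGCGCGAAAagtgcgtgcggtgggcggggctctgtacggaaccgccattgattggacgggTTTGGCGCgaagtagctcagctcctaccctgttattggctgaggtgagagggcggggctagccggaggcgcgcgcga
The Uhrf1 motif begins 185 bases before the listed start, 1 of 2 starts in the table. In Mcm3 a motif begins 20 bases and another, beyond the printed bases, 39 bases after the start. Mcm6 holds 3, beginning 110, 106 and 47 bases before its start, the first pair overlapping on opposite strands. A match of letters is a description and shows no binding.

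Most of the genes were higher in sh-PRDM16 than in sh-scr cells. In either direction 28 passed the test in treated and 9 in untreated cells on the deposited scale, 24 and 25 on median-centred and 26 and 26 on quantile-normalized arrays. The difference between these 2 changes, tested as an interaction, passed for 0 of the 39. Of the 39 genes tested in treated cells, 28 rose and 0 fell in sh-PRDM16 against sh-scr, where 10.6% of all genes rose and 4.77% fell. On median-centred arrays 23 rose and 1 fell, with 12.4% of all genes rising and 12.4% falling, and on quantile-normalized arrays 25 rose and 1 fell (12.6% and 12.6%). The 1 that fell on those scales was Brca1. On all 3 scales 21 rose (9.00% of all genes) and 0 fell (4.69%). The median change of the 39 genes was 0.62 against 0.15 for all genes, and 0.50 on median-centred arrays. In 33 of the 39, both treated sh-PRDM16 arrays read above both treated sh-scr arrays, as did 46.5% of all genes, and in 1, Brca1, both read below (18.3% of all genes). The number called fell to 11 without treated sh-scr replicate 2, to 13 without treated sh-PRDM16 replicate 1 and to 13 without replicate 2 of that group. Cdc6, Mcm2, Mcm6, Rrm2, Tk1, Uhrf1, Rad51ap1, Ccne1, Ccne2 and E2f1 were the 10 genes called in this comparison under every setting that tested them. Each probe set on its own was not among these settings.

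In untreated cells 8 of the 39 genes rose in sh-PRDM16 against sh-scr, where 1.98% of all genes rose, and 1 fell, where 15.7% of all genes fell. Mcm3, Mcm5, Pold1, Rrm2, Tk1, Dnmt1, Rad51ap1 and Ccne1 rose and Brca1 fell, each on all 3 scales (1.98% of all genes higher and 12.0% lower). All 8 that rose also rose in treated cells. The 2 comparisons contrast different arrays, but 1 fit over all 8 arrays gave the spread for both. Their calls are thus not independent. The scale mattered: on median-centred arrays 24 rose and 1 fell (8.81% and 12.7% of all genes), and on quantile-normalized arrays 25 rose and 1 fell (10.5% and 12.7%). The median change of the genes was 0.27 against −0.16 for all genes on the deposited scale, and 0.46 on median-centred arrays. Both untreated sh-PRDM16 arrays read above both untreated sh-scr arrays in 28 of the 39 genes, against 10.8% of all genes, and below them in 2, against 47.1%. Of the 28 higher ones, 27 were also higher in treated cells by the same rule. The number called was 2 without either untreated sh-scr array, 4 without untreated sh-PRDM16 replicate 1, 6 without replicate 2 of that group, and 4 with no filter on low values. None of the 9 calls held under all settings in limma, and 17 of the 39 genes had an unadjusted p under 0.05, beside 31.5% of all genes.

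**Figure D1:**
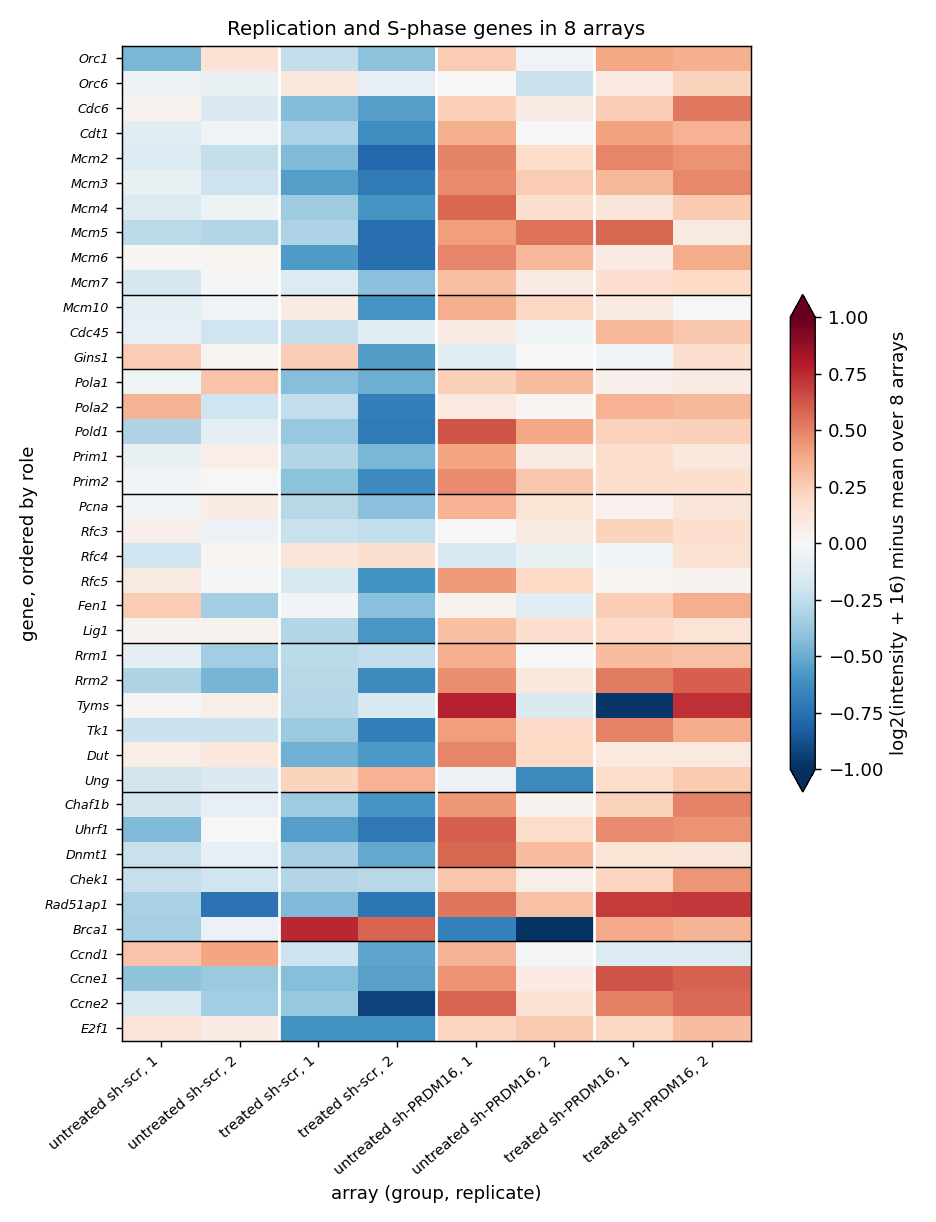
Level of each of the 40 measured genes in the 8 arrays, as log2(intensity + 16) minus the gene's mean over the arrays, with genes in rows ordered by role (black lines) and arrays in columns by group (white lines). Colours end at −1 and 1, Tyms lay under the filter, and most rows are redder in the 4 sh-PRDM16 columns than in the 4 sh-scr columns.

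Taking the cells with and without drug together, all 4 sh-PRDM16 arrays read above all 4 sh-scr arrays for 24 of the 39 genes, against 4.43% of all genes. These were Cdc6, Cdt1, Mcm2, Mcm3, Mcm4, Mcm5, Mcm6, Mcm7, Cdc45, Pold1, Prim1, Prim2, Lig1, Rrm1, Rrm2, Tk1, Chaf1b, Uhrf1, Dnmt1, Chek1, Rad51ap1, Ccne1, Ccne2 and E2f1. None of the 39 read below in all 4, against 7.63% of all genes. The median log2 level of the 39 genes, less that of all genes of the same array, was −0.75 and −0.80 in untreated sh-scr, −0.79 and −0.85 in treated sh-scr, −0.38 and −0.21 in untreated sh-PRDM16, and −0.24 and −0.50 in treated sh-PRDM16 arrays. The 4 sh-PRDM16 arrays were thus all above the 4 sh-scr arrays on a scale that each array sets for itself. The adipocyte and macrophage marker sums were lower in sh-PRDM16 arrays with and without drug. In treated cells the sums of 11 preadipocyte and fibroblast markers and of 8 smooth muscle and pericyte markers were higher, at 61153 to 62909 against 53582 to 55141 and at 26336 to 26680 against 20605 to 21638. On all 3 scales 1 of the 11 and 2 of the 8 rose there and 0 and 1 fell, beside 9.00% of all genes rising and 4.69% falling. Against the sums, the treated sh-PRDM16 means of Pdgfra (875 against 1220), Fap, Cd34, Dlk1, Rgs5 and Cspg4 were lower. Untreated, these sums overlapped between hairpins, at 66477 to 73622 against 70693 to 71875 and at 28289 to 30477 against 29574 to 30613. On all 3 scales 0 of the 11 and 1 of the 8 rose untreated (1.98% of all genes). By the same rule 1 of the 11, Pdgfra, at −0.78, and 0 of the 8 fell (12.0%). The part of these markers in the result was not tested.

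Among the 10 genes of origin recognition and licensing, 8 rose in treated cells and 2, Mcm3 and Mcm5, in untreated cells, with median changes of 0.86 and 0.33. On median-centred arrays 7 and 8 rose. Between hairpins, the shares of all genes that rose, for this and every later list, were 10.6% in treated and 1.98% in untreated cells. On median-centred arrays these shares were 12.4% and 8.81%. Cdc6, the ATPase that recruits the helicase to origins, read 94.6 and 81.8 in untreated sh-scr, 63.8 and 57.7 in treated sh-scr, 112 and 98.3 in untreated sh-PRDM16, and 112 and 139 in treated sh-PRDM16 arrays. Both treated sh-scr arrays were the lowest of the 8 and every sh-PRDM16 array was above every sh-scr array. The change for sh-PRDM16 was 0.88 (SE 0.15, adjusted p = 0.00592) in treated and 0.22 (SE 0.15, adjusted p = 0.356) in untreated cells. Cdt1, the loading factor that is destroyed once S phase starts, gave intensities of 631 and 664 in untreated sh-scr, 547 and 439.5 in treated sh-scr, 882 and 683 in untreated sh-PRDM16, and 913 and 875 in treated sh-PRDM16 arrays. Again the 4 sh-PRDM16 values were all higher, the lowest of them, 683, lying just above the highest sh-scr value, 664. Its change was 0.84 (SE 0.16, adjusted p = 0.0110) in treated cells and 0.26 (SE 0.16, adjusted p = 0.321) in untreated cells.

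The Mcm ring was measured through all of its 6 subunits, Mcm2 to Mcm7, and all except Mcm7 rose in treated cells. For Mcm2 the arrays read 209 and 194 in untreated sh-scr, 166 and 128 in treated sh-scr, 334 and 265 in untreated sh-PRDM16, and 331 and 322 in treated sh-PRDM16 arrays. The groups did not overlap in either comparison, and the change was 1.08 (SE 0.16, adjusted p = 0.00361) with rosiglitazone and 0.53 (SE 0.16, adjusted p = 0.0515) without. The other Mcm2 probe set, mean 211.9, overlapped in treated cells, at 210.4 and 162.2 in sh-scr against 207.0 and 255.7 in sh-PRDM16 arrays. Untreated, that probe set read 182.2 and 174.4 against 236.9 and 266.1, without overlap. Mcm3 read 447 and 408 in untreated sh-scr, 318 and 284 in treated sh-scr, 662 and 567 in untreated sh-PRDM16, and 598 and 665 in treated sh-PRDM16 arrays. Treated sh-scr was the lowest group and the 2 sh-PRDM16 groups shared a range. Its rises were 1.03 (SE 0.14, adjusted p = 0.00231) and 0.50 (SE 0.14, adjusted p = 0.0380) in treated and untreated cells. The next brightest Mcm3 probe set, mean 288.7, overlapped in sh-scr, at 247.1 and 190.6 with and 202.0 and 223.7 without the drug. All sh-PRDM16 arrays lay above these, from 343.7 to 374.3. With the mean of the 5 Mcm3 probe sets, the dimmest at 18.6, the treated rise was not called. For Mcm4 the values were 874 and 931 in untreated sh-scr, 751 and 635 in treated sh-scr, 1441 and 1080.0 in untreated sh-PRDM16, and 1052 and 1159.9 in treated sh-PRDM16 arrays, again with no overlap between hairpins. Mcm4 rose by 0.67 (SE 0.17, adjusted p = 0.0291) in treated cells, and its untreated change was 0.46 (SE 0.17, adjusted p = 0.0898).

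Mcm5 had 163 and 159 in untreated sh-scr, 157 and 111 in treated sh-scr, 271 and 297 in untreated sh-PRDM16, and 303 and 213 in treated sh-PRDM16 arrays. Its treated sh-PRDM16 arrays lay wide apart, yet both were above all 4 sh-scr arrays. Mcm5 rose by 0.87 (SE 0.20, adjusted p = 0.0203) in treated and 0.76 (SE 0.20, adjusted p = 0.0270) in untreated cells, and the treated rise did not pass on median-centred or quantile-normalized arrays. Mcm6, whose promoter window is printed above, gave 829 and 833 in untreated sh-scr, 546 and 478 in treated sh-scr, 1150.4 and 1025 in untreated sh-PRDM16, and 865 and 1057 in treated sh-PRDM16 arrays. The treated sh-scr pair stood clearly below the other 3 groups. The change was 0.88 (SE 0.15, adjusted p = 0.00564) in treated and 0.38 (SE 0.15, adjusted p = 0.109) in untreated cells. On the other Mcm6 probe set, mean 421.7, untreated arrays overlapped, at 423.6 and 390.7 in sh-scr against 636.1 and 354.9 in sh-PRDM16. Treated, that probe set read 326.5 and 270.7 against 471.0 and 500.4. The change of Mcm7 was 0.46 (SE 0.15, adjusted p = 0.0673) in treated cells, from a mean of 917 ± 129 (SD, n = 2) in sh-scr to 1258 ± 20.2 in sh-PRDM16, and it passed only on the 2 other scales. Orc1, the largest subunit of the origin recognition complex, rose by 0.69 (SE 0.20, adjusted p = 0.0456) in treated cells, a call lost on median-centred arrays, while Orc6, another subunit, had a change of 0.15 (SE 0.14, adjusted p = 0.483).

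Of the 3 helicase activators measured, 1 rose in treated cells and 0 in untreated cells, and on median-centred arrays 0 in either. Cdc45, which joins the Mcm ring to form the active helicase, rose by 0.48 (SE 0.13, adjusted p = 0.0378) in treated cells, a call kept on neither of the other scales. Gins1, a subunit of the GINS complex, had a change of 0.23 (SE 0.23, adjusted p = 0.517), with 1 treated sh-scr array at 144 above both treated sh-PRDM16 arrays. Mcm10, a scaffold protein needed for helicase activation, read 77.5 and 81.5 in untreated sh-scr, 89.5 and 50.7 in treated sh-scr, 112 and 99.4 in untreated sh-PRDM16, and 90.4 and 84.1 in treated sh-PRDM16 arrays. 1 treated sh-scr array lay between the treated sh-PRDM16 pair and the other below both, and the change was 0.30 (SE 0.20, adjusted p = 0.315). A dim probe set of Mcm10, at a mean of 4.9, was called higher with rosiglitazone in sh-scr cells when each probe set was tested alone (log2 0.64, adjusted p = 0.0332, with 2.70% of all probe sets called higher and 13.4% lower), where the bright one, at 85.7, had −0.19.

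All 5 polymerase and primase genes rose in treated cells, 3 of them on all 3 scales, and 1 rose in untreated cells. On median-centred arrays 3 rose in each. Pold1, the catalytic subunit of the polymerase that copies the lagging strand, read 97.9 and 116 in untreated sh-scr, 92.1 and 69.9 in treated sh-scr, 201 and 167 in untreated sh-PRDM16, and 149 and 149 in treated sh-PRDM16 arrays. The 4 sh-PRDM16 values were all above the 4 sh-scr values. Its rise was 0.78 (SE 0.16, adjusted p = 0.0146) in treated and 0.70 (SE 0.16, adjusted p = 0.0168) in untreated cells. On the other Pold1 probe set, mean 102.4, untreated arrays overlapped, at 85.8 and 109.0 in sh-scr against 104.1 and 92.3 in sh-PRDM16. Treated, that probe set read 97.6 and 85.9 against 124.1 and 120.2. The untreated call was lost with the mean of the Pold1 probe sets. Prim1, the catalytic subunit of primase, which lays the RNA primers, had 197 and 219 in untreated sh-scr, 167 and 148 in treated sh-scr, 279 and 222 in untreated sh-PRDM16, and 237 and 226 in treated sh-PRDM16 arrays. The lowest sh-PRDM16 value, 222, was close to the highest sh-scr value, 219, and the treated rise was 0.51 (SE 0.15, adjusted p = 0.0460). For Prim2, the large primase subunit, the arrays read 222 and 227 in untreated sh-scr, 167 and 140.3 in treated sh-scr, 321 and 276 in untreated sh-PRDM16, and 258 and 256 in treated sh-PRDM16 arrays. No sh-PRDM16 value lay among the sh-scr values, and Prim2 rose by 0.69 (SE 0.14, adjusted p = 0.0127) in treated cells.

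Pola1, the catalytic subunit of the polymerase that extends the primers, rose by 0.52 (SE 0.14, adjusted p = 0.0381) in treated cells, on the deposited scale only. Pola2, its regulatory subunit, read 132 and 86.2 in untreated sh-scr, 82.8 and 57.1 in treated sh-scr, 109.5 and 102 in untreated sh-PRDM16, and 133 and 131 in treated sh-PRDM16 arrays. Treated sh-scr held the lowest pair, and the untreated sh-scr arrays lay as far apart as 132 and 86.2. Pola2 rose by 0.80 (SE 0.20, adjusted p = 0.0296) in treated cells, and this call too was on the deposited scale only. Its second probe set, at a mean of 4.8, was called higher with rosiglitazone in sh-scr cells (log2 0.66, adjusted p = 0.0456, each probe set alone), opposite to the bright one at −0.53.

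Of the 6 genes of the clamp, the clamp loader and Okazaki fragment maturation, Lig1 and Rfc3 rose in treated cells and none in untreated cells, and on median-centred arrays 2 rose in each. Lig1, the ligase that seals Okazaki fragments, gave 208 and 208 in untreated sh-scr, 162 and 129.5 in treated sh-scr, 253 and 229.5 in untreated sh-PRDM16, and 233 and 224 in treated sh-PRDM16 arrays. Every sh-PRDM16 array exceeded every sh-scr array, and the change was 0.60 (SE 0.14, adjusted p = 0.0227) in treated and 0.20 (SE 0.14, adjusted p = 0.365) in untreated cells. Pcna, the sliding clamp, was among the 3 members with the highest intensity and read 3585 and 3876 in untreated sh-scr, 3033 and 2745 in treated sh-scr, 4669 and 4035 in untreated sh-PRDM16, and 3793 and 4002 in treated sh-PRDM16 arrays. Both sh-PRDM16 groups lay above their own sh-scr group, but the treated sh-PRDM16 arrays overlapped the untreated sh-scr arrays. The change of Pcna was 0.43 (SE 0.14, adjusted p = 0.0607) in treated and 0.22 (SE 0.14, adjusted p = 0.308) in untreated cells, and it passed only on the 2 other scales, in both comparisons. Rfc3, a clamp loader subunit, rose by 0.43 (SE 0.12, adjusted p = 0.0451) in treated cells on the deposited scale only. Its other probe set, mean 216.5, overlapped there, at 164.2 and 226.7 in sh-scr against 202.4 and 246.9 in sh-PRDM16 arrays. The call was lost with the mean of the Rfc3 probe sets. The other loader subunits measured, Rfc4 and Rfc5, had changes of −0.08 (SE 0.14, adjusted p = 0.705) and 0.41 (SE 0.17, adjusted p = 0.120). Fen1, the flap nuclease of Okazaki fragments, had a change of 0.53 (SE 0.21, adjusted p = 0.109), while its other probe set alone was called at log2 0.81 (adjusted p = 0.0221).

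Of the 5 genes of nucleotide supply and uracil removal tested, 4 rose in treated cells (Rrm1, Rrm2, Tk1 and Dut) and 2 in untreated cells (Rrm2 and Tk1). On median-centred arrays 3 and 4 rose. Rrm2, the S-phase subunit of ribonucleotide reductase, the enzyme that makes deoxynucleotides, read 3162 and 2823 in untreated sh-scr, 3216 and 2498 in treated sh-scr, 5375 and 4193 in untreated sh-PRDM16, and 5599 and 5896 in treated sh-PRDM16 arrays. The sh-scr groups overlapped each other and lay wholly below the sh-PRDM16 groups. Rrm2 rose by 1.02 (SE 0.17, adjusted p = 0.00619) in treated and 0.67 (SE 0.17, adjusted p = 0.0281) in untreated cells, and its 3 probe sets, tested each alone, were all called in treated cells, where 18 of the 80 probe sets of these genes and 2.23% of all probe sets were called higher and 0 and 1.65% lower. For Rrm1, the large subunit of that enzyme, the intensities were 1215 and 1019.9 in untreated sh-scr, 1074 and 1093 in treated sh-scr, 1682 and 1301 in untreated sh-PRDM16, and 1611 and 1595 in treated sh-PRDM16 arrays. They ran the same way with a smaller gap, and the treated rise was 0.56 (SE 0.16, adjusted p = 0.0424), a call lost on median-centred arrays. Tk1, the thymidine kinase made in S phase, had 142 and 142 in untreated sh-scr, 126 and 98.5 in treated sh-scr, 229.9 and 194 in untreated sh-PRDM16, and 242 and 221 in treated sh-PRDM16 arrays. The 4 sh-PRDM16 values lay above the 4 sh-scr values. Tk1 rose by 0.96 (SE 0.15, adjusted p = 0.00448) in treated and 0.52 (SE 0.15, adjusted p = 0.0421) in untreated cells.

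Dut, which destroys dUTP so that uracil is not built into DNA, read 764 and 784 in untreated sh-scr, 518 and 483 in treated sh-scr, 1027 and 836 in untreated sh-PRDM16, and 778 and 781 in treated sh-PRDM16 arrays. Treated sh-scr was lowest, and treated sh-PRDM16 lay within the range of untreated sh-scr. The change was 0.62 (SE 0.14, adjusted p = 0.0193) in treated and 0.25 (SE 0.14, adjusted p = 0.248) in untreated cells. Ung, the glycosylase that cuts uracil out of DNA, had changes of −0.06 (SE 0.18, adjusted p = 0.839) and −0.18 (SE 0.18, adjusted p = 0.545). Tyms, which makes thymidylate, had probe sets of its own only under the filter limit, and its brightest, at a mean of 19.6, was not tested.

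**Figure D2:**
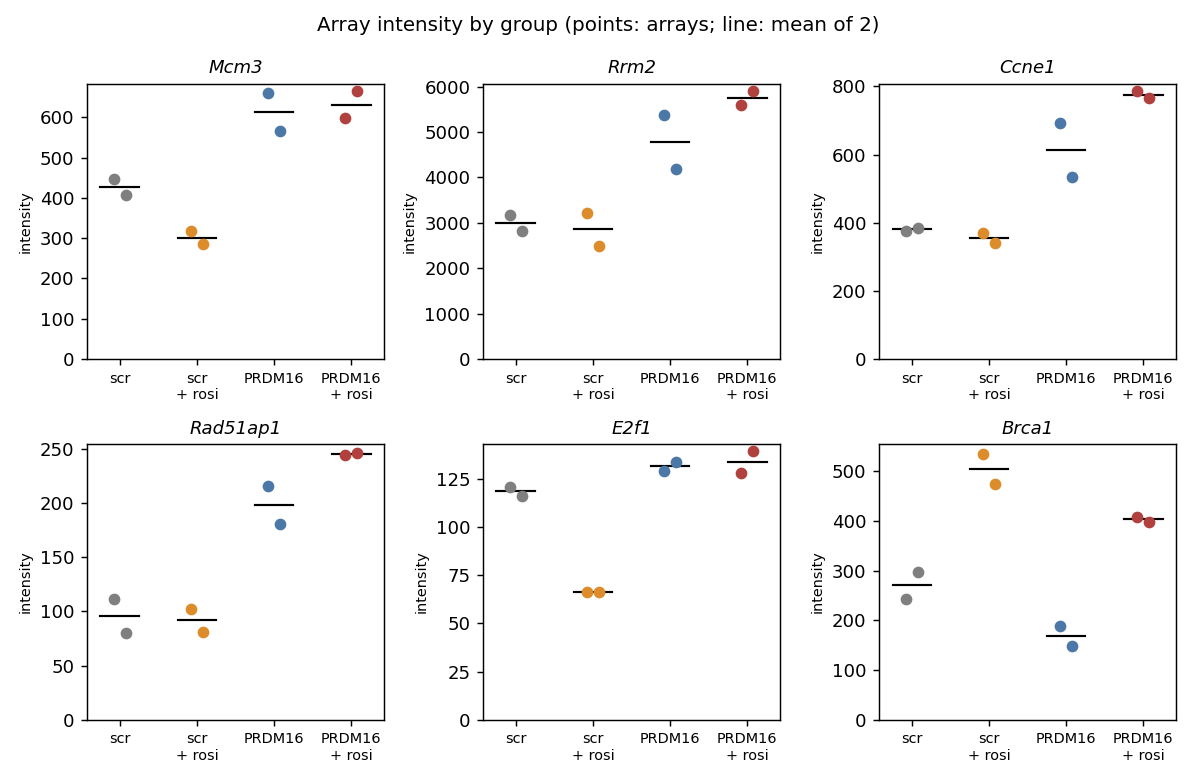
Intensity of Mcm3, Rrm2, Ccne1, Rad51ap1, E2f1 and Brca1 in each array, on linear axes that start at 0, with points for the 2 arrays and a line for their mean in sh-scr and sh-PRDM16 cells without and with rosiglitazone. E2f1 lies at 66.5 and 66.2 in treated sh-scr and between 116 and 139 in the other 6 arrays, and Brca1 runs opposite to the others between hairpins.

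All 3 genes measured of chromatin assembly and DNA methylation rose in treated cells on all 3 scales, and Dnmt1 also in untreated cells, where all 3 rose on median-centred arrays. Uhrf1, which reads hemimethylated DNA behind the fork and whose promoter window is printed above, gave 197 and 274 in untreated sh-scr, 182 and 160.3 in treated sh-scr, 423 and 313 in untreated sh-PRDM16, and 386 and 380.0 in treated sh-PRDM16 arrays. An untreated sh-scr array, at 274, was the highest of its hairpin and still below the lowest sh-PRDM16 array, at 313. The change was 1.09 (SE 0.19, adjusted p = 0.00646) in treated and 0.61 (SE 0.19, adjusted p = 0.0527) in untreated cells. Dnmt1, the methyltransferase that Uhrf1 recruits, read 460.2 and 509.9 in untreated sh-scr, 426 and 375 in treated sh-scr, 812 and 672 in untreated sh-PRDM16, and 597 and 589 in treated sh-PRDM16 arrays. The highest pair was untreated sh-PRDM16. Its rises were 0.55 (SE 0.14, adjusted p = 0.0331) in treated and 0.59 (SE 0.14, adjusted p = 0.0215) in untreated cells. Chaf1b, a subunit of the chaperone that places histones on new DNA, had 98.0 and 106 in untreated sh-scr, 85.1 and 69.8 in treated sh-scr, 159 and 116 in untreated sh-PRDM16, and 135 and 167 in treated sh-PRDM16 arrays. The hairpins did not overlap, and Chaf1b rose by 0.83 (SE 0.17, adjusted p = 0.0154) in treated cells.

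Of the 3 checkpoint and repair genes, 2 rose in treated cells, and 1 rose and 1 fell in untreated cells. On median-centred arrays 2 rose and 1 fell in each. Rad51ap1, a protein of DNA repair, read 112 and 80.0 in untreated sh-scr, 102 and 81.1 in treated sh-scr, 216 and 181 in untreated sh-PRDM16, and 244 and 246 in treated sh-PRDM16 arrays. The sh-scr groups shared a range and both sh-PRDM16 groups stood well above it. Rad51ap1 had the largest rise of the 39 genes in both comparisons, 1.28 (SE 0.17, adjusted p = 0.00227) in treated and 0.95 (SE 0.17, adjusted p = 0.00648) in untreated cells, a fold of 2.44 and 1.93. Chek1, the kinase that holds cells with stalled forks, gave 106 and 108 in untreated sh-scr, 101 and 102 in treated sh-scr, 157 and 133 in untreated sh-PRDM16, and 149.9 and 179 in treated sh-PRDM16 arrays. The 4 sh-scr arrays spanned 101 to 108 and the lowest sh-PRDM16 array was at 133. The treated change was 0.61 (SE 0.14, adjusted p = 0.0208) and the untreated one 0.39 (SE 0.14, adjusted p = 0.0898).

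Brca1, a repair protein of homologous recombination that acts in S phase and G2, was the exception. It read 244 and 297 in untreated sh-scr, 534 and 473 in treated sh-scr, 188 and 149 in untreated sh-PRDM16, and 408 and 397 in treated sh-PRDM16 arrays. All 4 groups were apart from each other, with both treated groups above both untreated groups and each sh-PRDM16 group below its sh-scr group. Brca1 fell by 0.64 (SE 0.16, adjusted p = 0.0238) in untreated cells, and its change in treated cells was −0.31 (SE 0.16, adjusted p = 0.196). The untreated call was lost with the mean of the Brca1 probe sets and with no filter on low values. With rosiglitazone Brca1 rose by 0.86 (SE 0.16, adjusted p = 0.00560) in sh-scr and 1.19 (SE 0.16, adjusted p = 0.00115) in sh-PRDM16 cells, on all 3 scales in both. Of its 4 probe sets, tested each alone, 2 were called higher with rosiglitazone in sh-scr cells and the same 2 in sh-PRDM16 cells, where 4.51% of all probe sets were called higher and 1.13% lower, and the dimmest, at a mean of 24.3, was not called, at log2 −0.08 and −0.48.

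Among the 4 regulators of the step from G1 to S phase, 3 rose in treated cells and 1, Ccne1, in untreated cells, and 3 and 2 rose on median-centred arrays. Ccne1, cyclin E1, the partner of the kinase that starts S phase, read 377 and 385 in untreated sh-scr, 369.8 and 340.4 in treated sh-scr, 694 and 533 in untreated sh-PRDM16, and 786 and 767 in treated sh-PRDM16 arrays. Both sh-scr groups lay between 340 and 385, and the lowest sh-PRDM16 array was at 533. Ccne1 rose by 1.10 (SE 0.15, adjusted p = 0.00227) in treated and 0.65 (SE 0.15, adjusted p = 0.0167) in untreated cells. For Ccne2, cyclin E2, the values were 477 and 416 in untreated sh-scr, 404 and 271 in treated sh-scr, 802 and 588 in untreated sh-PRDM16, and 761 and 795 in treated sh-PRDM16 arrays. There was no overlap between hairpins, and the change was 1.19 (SE 0.21, adjusted p = 0.00676) in treated and 0.61 (SE 0.21, adjusted p = 0.0756) in untreated cells.

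E2f1, an activating E2F factor and itself a target of E2F, gave 121 and 116 in untreated sh-scr, 66.5 and 66.2 in treated sh-scr, 129 and 134 in untreated sh-PRDM16, and 128 and 139 in treated sh-PRDM16 arrays. The treated sh-scr arrays stood alone below the other 6. E2f1 rose by 0.86 (SE 0.12, adjusted p = 0.00261) in treated cells, and its change in untreated cells was 0.13 (SE 0.12, adjusted p = 0.505). Ccnd1, cyclin D1, which growth factor signals induce early in G1, had 814 and 879 in untreated sh-scr, 574 and 457 in treated sh-scr, 844 and 658 in untreated sh-PRDM16, and 605 and 602 in treated sh-PRDM16 arrays. The untreated groups overlapped, and the treated sh-PRDM16 arrays lay just above the treated sh-scr arrays. The change of Ccnd1 was 0.23 (SE 0.16, adjusted p = 0.348) in treated and −0.18 (SE 0.16, adjusted p = 0.502) in untreated cells, and it was not called on any scale.

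**Figure D3:**
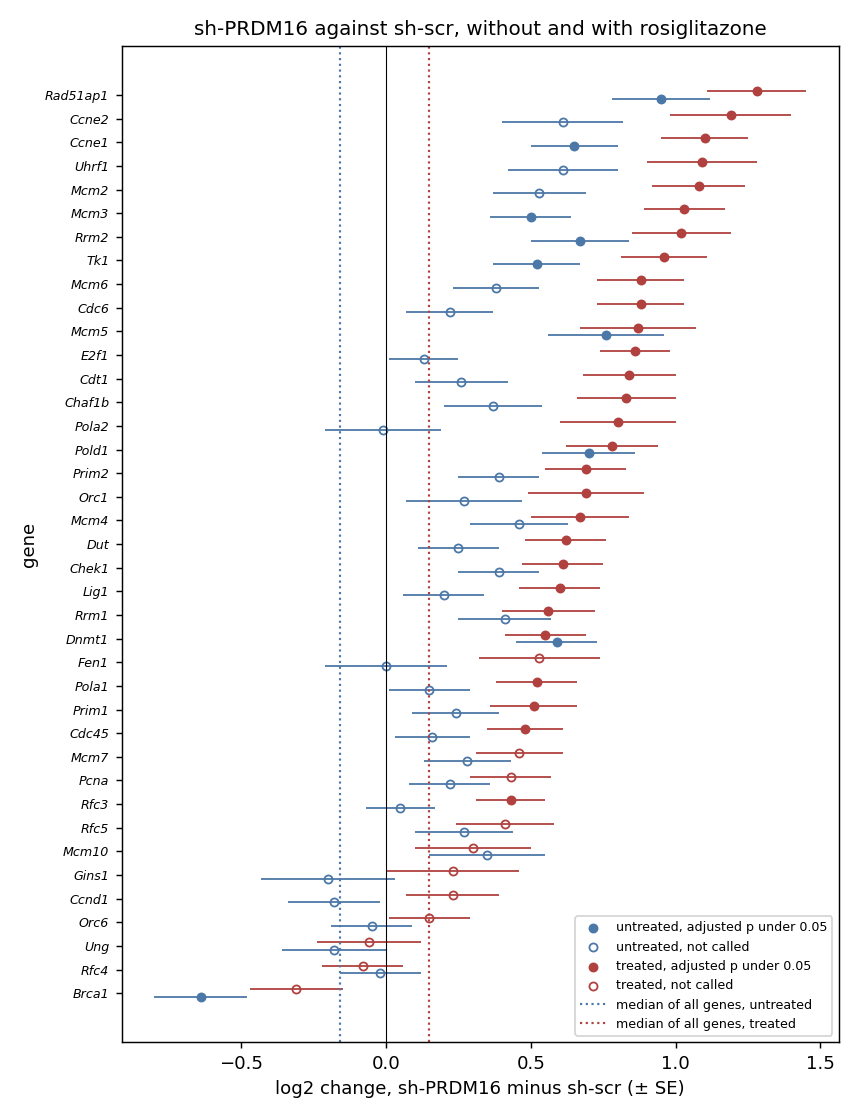
Change of the 39 tested genes for sh-PRDM16 against sh-scr in log2(intensity + 16), ± SE, in untreated (blue) and treated (red) cells, sorted by the treated change, with filled points at an adjusted p under 0.05 and dotted lines at the median of all genes. Filled red points number 28, all right of 0, and filled blue points number 9, with Brca1 the only one left of 0.

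With rosiglitazone in sh-scr cells 9 of the 39 genes fell, beside 32.2% of all genes, and Brca1 alone rose, beside 5.24%. E2f1 fell by 0.71 (SE 0.12, adjusted p = 0.00448), Ccnd1 by 0.71 (SE 0.16, adjusted p = 0.0126), Mcm6 by 0.68 (SE 0.15, adjusted p = 0.00989) and Dut by 0.61 (SE 0.14, adjusted p = 0.0114), these 4 on all 3 scales, as did 11.8% of all genes, while Brca1 rose on all 3, as did 5.16%. Pola1 (−0.58), Prim2 (−0.51), Mcm3 (−0.48), Lig1 (−0.47) and Cdc6 (−0.44) fell on the deposited scale only. The fall of Mcm3 was not called with the mean of its probe sets either. The median of the 39 genes was −0.34, beside −0.31 for all genes, and −0.05 beside −0.02 on median-centred arrays. The treated arrays were below the untreated ones without overlap in 26 of the 39 genes, beside 64.9% of all genes, and above them in 3, beside 12.4%. On median-centred arrays 4 rose (Orc6, Rfc4, Ung and Brca1) and 4 fell (14.2% and 11.9% of all genes), and on quantile-normalized arrays also 4 and 4 (13.1% and 14.9%). By role, the median was −0.56 for the G1 to S regulators and −0.51 for the polymerases and primase. It was −0.08 for nucleotide supply and −0.19 for helicase activation, both of which turned positive on median-centred arrays, at 0.22 and 0.11. The number called was 2 without treated sh-scr replicate 2, 5 and 3 without untreated sh-scr replicate 1 and 2, and 18 with a pseudocount of 64. Brca1 and E2f1 were called under every setting that tested them, each probe set on its own not counted. In the same arrays the summed preadipocyte and fibroblast markers were at 53582 to 55141 with and 70693 to 71875 without the drug, and the smooth muscle and pericyte markers at 20605 to 21638 and 29574 to 30613. On all 3 scales 5 of the 11 and 4 of the 8 fell and 0 rose. The beta-actin 3′ to 5′ difference was largest in the 2 treated sh-scr arrays, while the Gapdh difference was −0.35 in both, within its range in the other 6. The part of these measures in the falls and in the treated comparison of hairpins was not tested.

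In sh-PRDM16 cells rosiglitazone raised 1 of the 39 genes, Brca1, and lowered 0, where 10.2% of all genes rose and 3.34% fell. Brca1 rose on all 3 scales, as did 9.76% of all genes, and 0 of the 39 fell on all 3, as did 3.21%. The treated arrays were above the untreated ones without overlap in 13 of the 39 genes, beside 27.0% of all genes, and below in 9, beside 23.6%. The median change of the 39 was 0.12 against 0.00 for all genes. E2f1, at 129 and 134 without and 128 and 139 with the drug, had a change of 0.02 (SE 0.12, adjusted p = 0.946). Ung had the largest change that was not called, 0.57 (SE 0.18, adjusted p = 0.0719), and was called on the 2 other scales. On median-centred arrays 2 rose and 1 fell (14.5% and 9.91% of all genes), and on quantile-normalized arrays 2 rose and 4 fell (13.3% and 13.6%). The 4 were Pcna, Dut, Dnmt1 and Ccnd1.

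**Figure D4:**
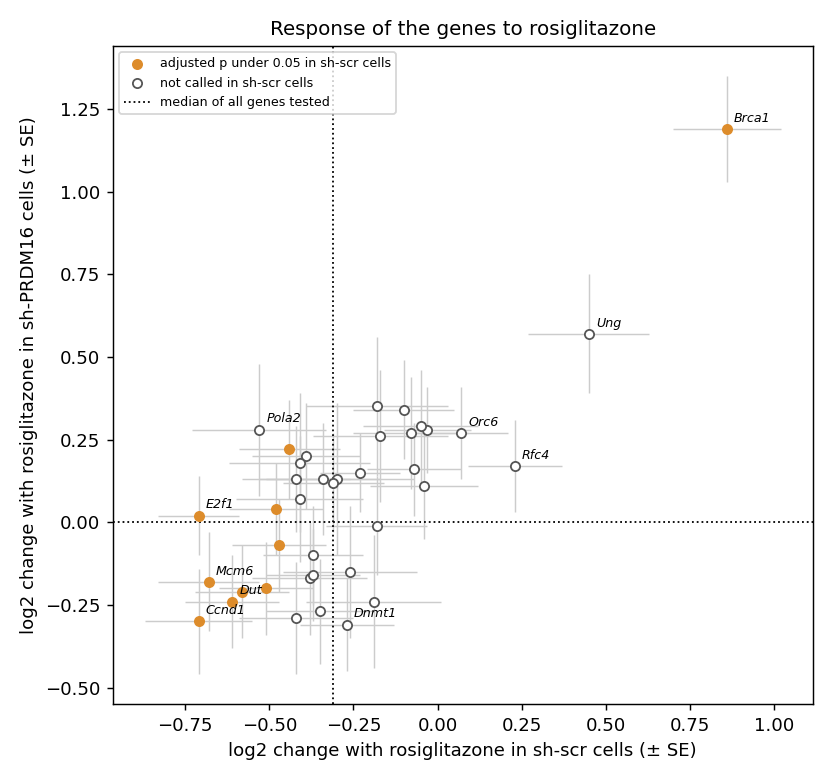
Change of the 39 tested genes with rosiglitazone in sh-scr cells (horizontal) against that in sh-PRDM16 cells (vertical), in log2(intensity + 16) with bars of ± SE and dotted lines at the median of all genes. Orange points were called in sh-scr cells, and Brca1 is at 0.86 and 1.19 with the other 38 genes below 0.6 on both axes.

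Whether the drug acted differently in the 2 kinds of cells was tested as an interaction, the change in sh-PRDM16 less that in sh-scr cells. In limma 0 of the 39 genes passed, where 0.678% of all genes passed with a positive and 0.0753% with a negative difference. At an unadjusted p under 0.05 there were 7 of the 39, beside 25.6% of all genes. The median difference was 0.37 for the 39 and 0.33 for all genes, and 0.06 and 0.02 on median-centred arrays. There, too, 0 of the 39 passed (0.0108% of all genes with a positive and 0.0430% with a negative difference), as on quantile-normalized arrays (0.0215% and 0.0323%) and on all 3 scales (0.0108% and 0.0323%). E2f1 had the smallest p, with a difference of 0.73 (SE 0.17, adjusted p = 0.0899), and its adjusted p ran from 0.0706 to 0.289 over the other settings that tested it. In Cdc6, Pola2, Rfc3 and Ccne1 both treated arrays were below both untreated arrays in sh-scr cells and above them in sh-PRDM16 cells. Their differences were 0.66 (SE 0.21, adjusted p = 0.140), 0.81 (SE 0.28, adjusted p = 0.159), 0.38 (SE 0.17, adjusted p = 0.203) and 0.44 (SE 0.21, adjusted p = 0.210). On the other Rfc3 probe set, sh-PRDM16 arrays overlapped, at 202.4 and 246.9 with and 217.3 and 200.6 without the drug. With the lower 50% of genes left out, 3 of the genes passed, Cdt1, Mcm2 and Ccne2, beside 16.5% of all genes with a positive and 0.226% with a negative difference. That filter left fewer than 39 of the genes, and E2f1 was not tested.

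Genes of other steps of the cell cycle were read beside them. Between hairpins, the shares of all genes that fell were 4.77% in treated and 15.7% in untreated cells. On median-centred arrays they were 12.4% and 12.7%. Of 38 other replication genes, 13 rose and 1 fell for sh-PRDM16 against sh-scr in treated cells, and 4 rose in untreated cells. On median-centred arrays 14 rose and 1 fell in treated cells and 13 rose in untreated cells. Dbf4, the activator of the kinase that fires origins, rose by 1.06 and 0.78 in treated and untreated cells. Exo1, a nuclease of mismatch repair, rose by 0.91 and 0.85. Rad54l, a recombination protein, and Pold3, a polymerase subunit, rose by 0.83 and 0.82 in treated cells. Of 22 regulators of cycle entry and exit, 9 rose and 1 fell in treated cells, and 3 rose and 4 fell in untreated cells, against 9 and 2 and 9 and 3 on median-centred arrays. Ccna2, cyclin A2, rose by 1.14 and 0.86, and E2f8, a repressing E2F factor, by 1.39 and 1.01, while Cdkn2b, a kinase inhibitor of G1, fell by 0.84 and by 1.01. In untreated cells the largest change of this list called on all 3 scales was that of Cdkn2c, at −1.17. Treated, the Cdkn2c means were 2057 in sh-scr and 1850 in sh-PRDM16 arrays. With rosiglitazone in sh-scr cells its change was −0.76. Cdkn1c, another kinase inhibitor, rose by 0.99 in treated cells, and with rosiglitazone by 1.06 in sh-scr and 1.51 in sh-PRDM16 cells.

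Of 29 mitosis genes, 26 rose in treated and 22 in untreated sh-PRDM16 cells against sh-scr, and 0 fell in either, the same counts as on all 3 scales. Their medians were 1.33 and 0.74, beside 0.62 and 0.27 for the replication genes. Cdc20, an activator of the anaphase-promoting complex, rose by 1.86 in treated cells, Ccnb2, cyclin B2, by 1.69, Ect2, a factor of cytokinesis, by 1.67 and the mitotic kinase Aurka by 1.56. With rosiglitazone in sh-scr cells 14 of the 29 fell on the deposited scale, beside 32.2% of all genes. On all 3 scales 2 fell, Ect2 (−1.09) and Cdc20 (−0.92), beside 11.8% of all genes. Beside these lists, 9 of 10 macrophage and leukocyte markers tested fell in treated and 8 in untreated sh-PRDM16 cells, on all 3 scales. Of all genes, 4.69% and 12.0% did so. The markers were led by Lyz2, at −3.62 and −3.69. Of 10 adipocyte markers 4 and 9 fell, beside 4.77% and 15.7% of all genes, among them Lep, at −2.01 and −2.05. On median-centred arrays 8 and 8 fell, beside 12.4% and 12.7%.

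**Figure D5:**
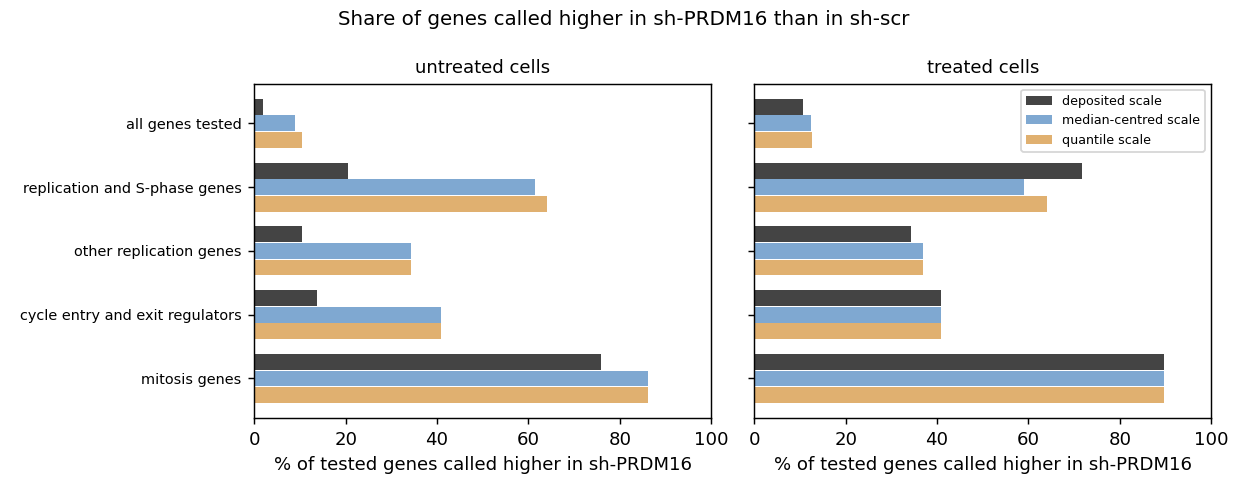
Share of genes called higher in sh-PRDM16 than in sh-scr cells, in percent of the genes tested in each list, for untreated (left) and treated (right) cells on the deposited, median-centred and quantile scales. The replication genes lie above all genes tested on each scale (8 of 39 against 1.98% untreated and 28 of 39 against 10.6% treated on the deposited scale), and the mitosis genes lie higher still.

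The genes with and without the E2F motif of the promoter search are set side by side here. In treated cells 12 of the 13 with a motif rose for sh-PRDM16 against sh-scr, with a median change of 0.78 and a range of 0.43 to 1.09. Of the 21 tested genes whose listed window lacked it, 13 rose, with a median of 0.56 and a range of −0.31 to 1.28. In untreated cells the medians were 0.28 and 0.25, with 4 genes rising in each set. These are descriptions with no test.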

How the data were processed

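Each sample was hybridised to an Affymetrix mouse 430A_2 array, with Trizol RNA made into biotin-labelled cRNA, per the labels' protocols. The intensity values are as deposited by the authors, on a linear scale, and how they were summarised and scaled is not given in the sources used here. The members, gene lists and tests were chosen with earlier results of these data known. Probe sets were named through GEO's platform annotation, with 20380 pairing with 1 gene, 691 with several and 1555 not listed. Of 12393 genes, 12369 matched RefSeq by Entrez ID. Log2(intensity + 16) was fitted in 1 limma model (3.58.1, R 4.3.3) over all 8 arrays, with Benjamini-Hochberg adjustment over 9295 genes in each comparison. The fit had 4 residual and 5.23 prior degrees of freedom and a median SE of 0.15. It was tested on simulated data. The number of arrays limits the precision. Values in every array are given for members called on all 3 scales in any comparison, for the 3 with the highest intensity, and where probe sets disagreed, and other members are given by their changes. From the other lists up to 4 called genes each were named. Scale, filter, pseudocount, probe set choice, the replicate block and each left-out array were tried as alternatives. Replicate numbers did not pair the arrays, with correlations of replicate differences between −0.018 and 0.054.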

Additional observations from a re-analysis of the deposited data

Results flagged for a closer look

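A probe set annotated to both Tyms, the thymidylate synthase gene, and the pseudogene Tyms-ps entered no comparison, since it names no single gene. It read 447 and 441 in untreated sh-scr, 353 and 380.4 in treated sh-scr, 629 and 541 in untreated sh-PRDM16, and 566 and 569 in treated sh-PRDM16 arrays. The means were 444.2 ± 4.2 and 366.9 ± 19.1 in sh-scr cells and 584.7 ± 62.1 and 567.4 ± 2.5 in sh-PRDM16 cells (SD, n = 2), untreated first in each. The 4 sh-PRDM16 arrays lay above the 4 sh-scr arrays. It stands here because it is a signal above that of the sh-scr arrays in data outside the comparisons, and the difference was not tested.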

How the results depend on the processing

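The counts are of genes called in either direction, out of the 39 except where the filter was changed. Leaving out the lower 50% of genes dropped some of the 39, E2f1 among them, and no filter added Tyms. For sh-PRDM16 against sh-scr in untreated cells, 9 were called as deposited, 25 on median-centred and 26 on quantile-normalized arrays. The count was 4 with no filter, 14 with the lower 50% of genes left out, 5 and 15 with pseudocounts of 1 and 64, and 5 with each probe set on its own. In treated cells 28 became 18 with no filter and 14 with each probe set on its own. For rosiglitazone in sh-scr cells 10 became 18 with a pseudocount of 64. In sh-PRDM16 cells 1 became 3 on median-centred arrays, 6 on quantile-normalized arrays, and 2 with the mean of all probe sets, with a pseudocount of 64 or with each probe set on its own. The interaction's 0 became 3 with the lower 50% left out. The cause was not tested.

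Leaving out 1 array gave 2 to 15 calls for rosiglitazone in sh-scr cells and 1 to 3 in sh-PRDM16 cells. It gave 2 to 10 for the hairpins in untreated and 11 to 28 in treated cells, and 0 for the interaction. The lowest counts came without treated sh-scr replicate 2 (rosiglitazone in sh-scr cells 2, hairpins in treated cells 11) and without either untreated sh-scr array (hairpins in untreated cells 2). With the replicate number as a block the calls were 10 and 1 with rosiglitazone and 10 and 24 for the hairpins, untreated first, and 0 for the interaction. Over the single genes, 2747 changes stayed on their side of the threshold, 179 lost a call and 129 gained one. Of changes called as deposited or under the other setting, 0 turned sign. Uncalled changes could turn sign, as Rrm1 did with rosiglitazone in sh-scr cells, from −0.04 to 0.25 on median-centred arrays.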
